A study of Mus musculus with 3 samples.

Results

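The keratin genes of both mouse keratin clusters were taken as the protein-coding genes whose symbol begins with Krt and a digit and that lie in chr11:98900000-100500000 or chr15:101200000-102200000 (GRCm38). The rule found 53 genes of 21938 annotated protein-coding genes, 27 on chromosome 11 and 26 on chromosome 15. Chromatin accessibility was read as the number of Omni-ATAC-seq peaks whose summit, the base of highest tag pile-up, lay between 5 kb before the gene's start and its end. Omni-ATAC-seq uses the Tn5 transposase to cut and tag DNA that is not packed away by nucleosomes.

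Hair follicle stem cells (HFSCs; CD34+CD49f+Sca-1-) had been sorted from dorsal skin of 6-month-old mice whose follicles rested in telogen. The Msx2-WT group held 1 library, from wild-type C57BL/6J mice matched for hair cycle and called WT here, and the Msx2-KO group held 2 libraries, replicates 1 and 2, from mice labelled as a knockout of the homeobox gene Msx2 and called KO1 and KO2. The study's methods describe an allele targeted in embryonic stem cells, whereas peak names in both KO files carry the letters cKO, and the labels were followed. No group was treated. The KO libraries carried 1 batch label and the WT library another, and the effects of genotype and batch therefore cannot be told apart. The labels do not state how many animals were behind each library, and with 1 WT library no test between genotypes was possible.

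Keratins build the intermediate filaments of epithelial cells from pairs of a type I chain, encoded in the cluster on chromosome 11 apart from Krt18, and a type II chain, encoded in the cluster on chromosome 15. Epithelial layers are known by their pairs: Krt5 and Krt14 in basal cells and HFSCs, Krt1 and Krt10 in the suprabasal layers of the epidermis, Krt8 and Krt18 in simple epithelia. Further sets belong to the hair shaft, the inner root sheath around it and the companion layer, and are known from growing follicles.

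The libraries differed in depth. The commonest local background, a measure of depth, was 1.738 tags in WT, 0.476 in KO1 and 0.79 in KO2, and 29817, 18518 and 37012 peaks passed a −log10 q above 2. The fewest tags at a peak past that limit were 9, 5 and 6, which is 5.18, 10.5 and 7.59 times the library's background. In the shallowest library, KO1, a site needed the highest level over background to be listed. Promoters of 7, 6 and 8 of 9 HFSC genes, none of 4 leukocyte genes and 2, 0 and 2 of 4 fibroblast and endothelial genes held a peak in WT, KO1 and KO2. Lgr5, a stem cell marker, was the HFSC gene with a promoter peak in both KO libraries and not in WT (2.31% of all genes), and its window held a peak in all 3. Of 4 melanocyte promoters 3, 2 and 3 held one. Among all genes the promoter shares were 47.0%, 37.8% and 53.5%, and lists this short cannot establish the purity of the sorted cells. The promoter of Msx2 had a peak in all 3 libraries and gave no check of the genotype, since a peak at a start site does not show whether the gene behind it is disrupted.

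The basal keratins were the class with the largest share of genes with a peak in each library. Krt5, Krt14 and Krt15, a keratin known from the HFSC bulge, all held a peak in WT and in KO2, and Krt5 and Krt14 did so in KO1 as well. The DNA at these summits is shown first, as the sites that carry the basal result, each as 201 bases of GRCm38 read 5′ to 3′ on the minus strand, the strand of all 3 genes, with the 11 bases at the summit in capitals. The Krt5 and Krt15 windows were moved by 47 and 34 bases to end just before the transcribed part. They are chr15:101712899-101713099 for Krt5, chr11:100209837-100210037 for the site 2389 bases before the Krt14 start, and chr11:100135929-100136129 for Krt15.
Krt5: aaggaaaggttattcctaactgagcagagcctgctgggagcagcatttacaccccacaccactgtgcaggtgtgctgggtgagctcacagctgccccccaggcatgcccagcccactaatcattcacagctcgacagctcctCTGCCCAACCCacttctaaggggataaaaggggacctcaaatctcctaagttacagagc
Krt14: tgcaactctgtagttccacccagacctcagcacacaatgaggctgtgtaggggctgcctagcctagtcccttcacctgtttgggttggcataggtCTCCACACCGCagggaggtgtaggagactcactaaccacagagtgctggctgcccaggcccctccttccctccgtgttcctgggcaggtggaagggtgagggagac
Krt15: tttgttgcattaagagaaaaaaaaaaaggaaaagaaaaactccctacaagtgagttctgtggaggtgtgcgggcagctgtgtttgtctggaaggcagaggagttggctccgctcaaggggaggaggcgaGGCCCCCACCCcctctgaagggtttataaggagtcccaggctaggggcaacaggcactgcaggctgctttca

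At the Krt5 promoter, with its summit 54 bases before the start, the 3 libraries held 34 tags (95% exact Poisson interval 23.5 to 47.5), 11 tags (5.5 to 19.7) and 23 tags (14.6 to 34.5), in the order WT, KO1, KO2 used throughout. Such intervals cover counting error only, since duplicate reads had been kept. Divided by the library's background these were 19.6, 23.1 and 29.1, so WT, highest in tags, was lowest on this scale. WT was also lowest at the median of all 13047 regions that passed in every library (13.2, 23.1 and 30.4). Relative to the median difference at those regions, Krt5 was higher in WT than in KO1 and KO2, by 0.73 and 0.63 on the log2 scale. WT had a further Krt5 peak 1057 bases before the start (31 tags), inside the merged region chr15:101712487-101714910, and KO2 a further one 4504 bases before it (16 tags).

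Upstream of Krt14, the merged region chr11:100207432-100210323 held 27, 9 and 25 tags, or 15.5, 18.9 and 31.6 times background. The summits within it were not at one place: 2402 bases before the start in WT, 1447 in KO1 and 2389 in KO2, whose peak was 2783 bases wide. WT had a further peak with its summit 162 bases before the start, with 17 tags, at a place that the wide KO2 peak also covered. Counted within 1500 bases of the start, the Krt14 promoter held a peak in all 3 libraries. In an intron of Krt14, KO1 passed the limit with 9 tags, and KO2 held 15 tags just short of it (−log10 q 1.99). Krt14 has near-identical copies of parts of its sequence in Krt16, Krt17 and Krt42, so reads may be shared among them.

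At the Krt15 promoter, 67 bases before the start, 27, 5 and 23 tags were counted (15.5, 10.5 and 29.1 times background). The 5 tags of KO1 missed the limit, with a −log10 q of 1.32. Krt15 thus differed between the KO libraries in its call, while all 3 libraries listed a peak. With a −log10 q of at least 5, or with tags thinned to the lowest background, 0 of the 3 basal genes passed in all 3 libraries.

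Over all classes, 17 of the 53 keratin genes held a peak in WT (32.1%, Wilson 95% interval 21.1 to 45.5), 3 in KO1 (5.66%, 1.94 to 15.4) and 13 in KO2 (24.5%, 14.9 to 37.6). Among all protein-coding genes the shares were 58.1%, 46.4% and 63.1%. Each of these lay above the interval of the keratin genes in the same library. Keratin genes had a median window of 11.6 kb against 22.4 kb for all genes, and the part of window length in this gap was not tested. At start sites, with the summit within 1500 bases, 9, 3 and 9 keratin genes held a peak, against 47.0%, 37.8% and 53.5% of all genes. No peak past the limit was found in any library for 31 keratin genes, of which 24 had no listed peak at all and 7 only peaks at or below the limit.

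**Figure D1:**
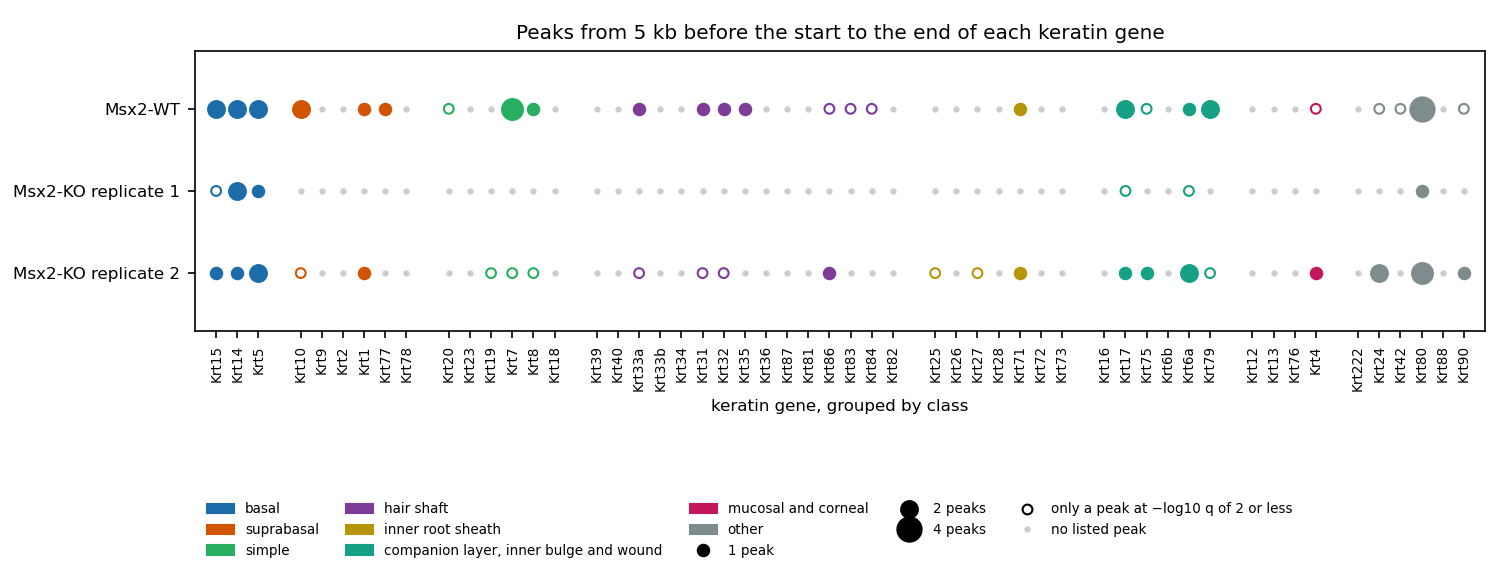
Peaks in the window of each of the 53 keratin genes (x axis, grouped and coloured by class) in the 3 libraries (y axis); filled circles are peaks with a −log10 q above 2, sized by their number, open circles genes with only a peak at or below it, and grey dots genes with no listed peak. Filled circles stand in 17 genes of WT, 3 of KO1 and 13 of KO2.

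By pattern, 3 genes (Krt5, Krt14 and Krt80) held a peak in all 3 libraries, where 43.4% of all genes did. None held a peak in both KO libraries and not in WT (2.39% of all genes). The reverse pattern, a peak in WT and in neither KO library, was seen in 9 keratin genes, or 17.0% (9.20 to 29.2), against 3.16% of all genes. These 9 were Krt10, Krt77, Krt7, Krt8, Krt31, Krt32, Krt33a, Krt35 and Krt79. Peaks in WT and KO2 were found for 5 genes (11.3% of all genes), and peaks in KO2 alone for another 5 (6.06% of all genes). No keratin gene held a peak in WT and KO1 without KO2 (0.237% of all genes) or in KO1 alone (0.401%), and 33.1% of all genes had none in any library.

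The limit of detection differed between the libraries, and its part in the 9 genes was not tested. For 7 of them KO2 listed a peak that missed the limit, and for none did KO1. Of the 14 merged regions in keratin windows that passed in WT alone, 2 (Krt79 and an intron of Krt80) stood higher over background in WT than the 10.5 that KO1 needed, and 7 stood higher than the 7.59 that KO2 needed. The other 12 stood below the level that KO1 needed, by up to 10.4 times background in WT against 10.5. Of all 8905 regions of the genome that passed in WT alone, 14.4% stood above the KO1 level and 34.1% above the KO2 level. Levels over background also differed between the libraries at large. At all 13047 regions that passed in every library, the medians were 13.2, 23.1 and 30.4 times background in WT, KO1 and KO2. With tags thinned to the lowest background, 3 keratin genes were open in WT alone and 2 in both KO libraries alone. The shares over all genes were not computed for thinned tags. Without KO2, 14 were open in WT and not in KO1. That set joins the genes open in WT alone (3.16% of all genes) and those open in WT and KO2 (11.3%).

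Among the suprabasal keratins, Krt1, Krt10 and Krt77 held peaks in WT, Krt1 alone in KO2 and none of the 6 genes in KO1. The sites that set the libraries apart here lie upstream of the genes, on the minus strand, and are printed as before with the 11 summit bases in capitals. They are chr15:101855537-101855737 for Krt1, chr11:99391011-99391211 for Krt10 and chr15:101869706-101869906 for Krt77, the last moved by 42 bases to end before the transcribed part.
Krt1: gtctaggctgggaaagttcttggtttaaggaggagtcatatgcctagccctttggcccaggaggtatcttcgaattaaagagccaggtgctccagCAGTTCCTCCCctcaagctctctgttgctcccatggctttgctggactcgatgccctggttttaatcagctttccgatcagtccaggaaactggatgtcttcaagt
Krt10: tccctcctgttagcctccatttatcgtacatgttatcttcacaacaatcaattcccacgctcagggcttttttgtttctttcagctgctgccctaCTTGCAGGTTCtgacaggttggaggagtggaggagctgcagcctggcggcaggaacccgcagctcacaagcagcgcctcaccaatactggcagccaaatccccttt
Krt77: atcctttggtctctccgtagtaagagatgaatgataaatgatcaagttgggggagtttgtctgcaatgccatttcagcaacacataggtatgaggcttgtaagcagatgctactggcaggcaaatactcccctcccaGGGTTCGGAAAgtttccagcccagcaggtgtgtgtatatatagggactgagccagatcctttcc

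The Krt1 site, 4843 bases before the start of the type II suprabasal keratin, held 35 tags (24.4 to 48.7) in WT and 7 (2.8 to 14.4) in KO2, and KO1 listed none. Over the library's background these were 20.1 and 8.86, so WT was still higher on this scale. By the deposited fold, which divides by the local background of the site, the values lay closer, at 5.76 and 4.47. Whether the difference exceeds counting error once depth is taken out was not tested. Krt10, its type I partner, held 12 tags in WT 1747 bases before its start and, in WT, 10 tags inside a coding exon and 28 bases before an internal start. At the exon site KO2 listed 5 tags below the limit, and at the upstream site neither KO library listed a peak. The Krt77 promoter, 59 bases before the start, held 13 tags in WT and no listed peak in the others. Krt2, Krt9 and Krt78 had no peak in any library.

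Of 5 promoters of interfollicular epidermis markers, 2 held a peak in WT and none in either KO library, a pattern seen in 2.11% of all genes. The 2 were Krt10, already counted above, and Ly6a, which encodes the Sca-1 antigen that the sort selected against. Krt10 counted only through the exon site at its internal start, where KO2 listed a peak below the limit. In the wider windows, Krtdap held a peak in all 3 libraries, Krt1 in WT and KO2, and Flg in none. The part of other epidermal cells in the WT peaks was not tested.

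Of the simple-epithelial keratins, 2 of 6 held a peak in WT and none in the KO libraries. Krt7, a type II keratin of glandular epithelia, had 3 peaks with 9, 13 and 16 tags, at 1 of which KO2 listed 5 tags below the limit. Krt8 had 18 tags (10.7 to 28.4) 1226 bases before its start, in an intron of the long noncoding gene Gm36026, with no listed peak at that place in either KO library. Its partner Krt18, and Krt19, Krt20 and Krt23, had no peak past the limit. The 0 of 6 in each KO library allows a share of up to 39.0% (Wilson), so few genes limit this class.

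Of 15 hair shaft keratins, 4 held a peak in WT, none in KO1 and 1 in KO2. Krt31 and Krt32 each held 16 tags in WT and 5 tags below the limit in KO2. Krt33a held 13 and, below the limit, 4, and Krt35 held 9 tags in WT only. All 4 WT sites lay over 1500 bases from a start: in an exon of Krt33a, an intron of Krt31, an exon of the neighbouring gene Gm11571 for Krt32 and 2874 bases upstream for Krt35. No hair shaft promoter held a peak in any library. The KO2 gene was Krt86, with 6 tags in a coding exon, under a peak that overlapped a WT peak of 6 tags below its higher limit. Hair keratins of 1 type are close to each other in sequence (Krt33a and Krt33b, or Krt81, Krt83, Krt86 and Krt87), so these reads may be shared.

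The inner root sheath keratins were closed but for Krt71, which held 9 tags in WT and 12 in KO2 in a coding exon. Over background these were 5.18 and 15.2. The other 6 genes of this class had no peak past the limit.

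Among the keratins of the companion layer, inner bulge and wounded epidermis, Krt17 held 29 tags in WT and 13 in KO2 at its promoter, with the WT summit 59 bases before the start, or 16.7 and 16.5 times background, and KO1 listed no peak there. Farther upstream WT held 23 tags at 1361 bases, and KO1 listed 4 tags below the limit at 1158 bases. Krt6a, induced in wounds, held 13 tags in WT and 11 in KO2, with summits 3307 and 3453 bases before its start. Nearer the start, KO2 passed with 13 tags at 300 bases, KO1 listed 3 tags below the limit at 157 bases, and WT listed 10 tags below it at 1429 bases, under the same wide KO2 peak. Krt6a and Krt6b are near-identical, and reads may be shared. Krt79, known from the upper follicle, was the member with the most tags among the genes open in WT alone: 25 tags (16.2 to 36.9) 283 bases before its start and 18 tags at 1757 bases before it, with no listed peak of either KO library at those sites. The Krt79 window is chr15:101940507-101940707 on the minus strand and is printed as the highest promoter of that pattern, with the 11 summit bases in capitals.
Krt79: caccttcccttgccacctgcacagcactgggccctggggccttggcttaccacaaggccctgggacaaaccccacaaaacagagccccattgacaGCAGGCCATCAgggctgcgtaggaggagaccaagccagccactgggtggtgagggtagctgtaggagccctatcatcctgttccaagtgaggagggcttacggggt

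Krt80, a type II keratin found near desmosomes, was the only member outside the basal class with a peak in all 3 libraries, and held 4 peaks in WT. The shared site, in an intron of the longest transcript and in WT 465 bases before an internal start, held 58 tags (44.0 to 75.0), 12 (6.2 to 21.0) and 17 (9.9 to 27.2), or 33.4, 25.2 and 21.5 times background. This was the only shared keratin site with a higher level over background in WT than in both KO libraries. At the gene's outer start, with summits 289, 129 and 187 bases upstream of it, 37, 5 and 20 tags were listed, with KO1 below the limit. KO1 also listed 7 tags below the limit 745 bases inside that start. The 201 bases at the shared summit, chr15:101364943-101365143 on the minus strand, read as follows, with the 11 summit bases in capitals.
Krt80: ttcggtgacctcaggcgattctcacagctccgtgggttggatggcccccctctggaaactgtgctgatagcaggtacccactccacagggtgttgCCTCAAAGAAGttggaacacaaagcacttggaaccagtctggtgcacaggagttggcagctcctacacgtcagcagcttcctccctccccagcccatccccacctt

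Peaks in KO2 alone were found at Krt24 (8 and 6 tags), Krt4, a keratin of mucosal epithelia (8 tags), Krt86, and Krt75 and Krt90, whose windows shared 1 peak of 7 tags. All 5 of these genes had a listed WT peak below the limit, so none was empty in WT.

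**Figure D2:**
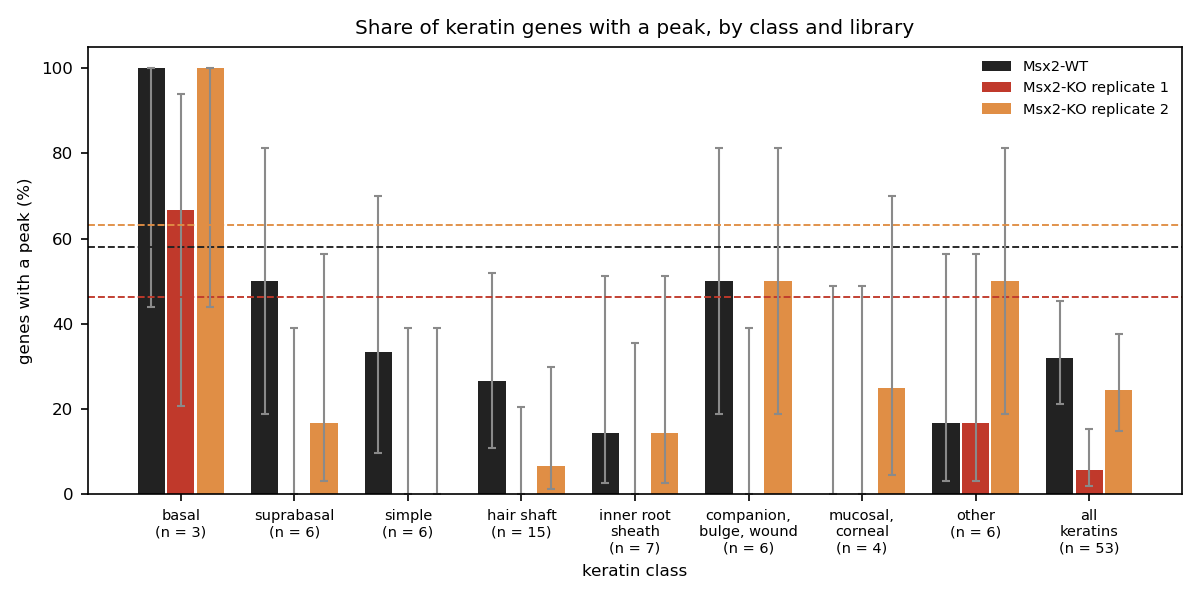
Share of genes with a peak (y axis, percent) by keratin class (x axis, with the number of genes) in the 3 libraries; error bars are Wilson 95% intervals over genes and dashed lines the share of all protein-coding genes in the library of the same colour. The basal bar stands above its line in every library, with an interval that reaches across the line. The bar for all keratins stands below its line in every library.

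Although few keratin genes were open, the clusters as a whole held many peaks. The 2 intervals, 2.60 Mb in all, held 118, 29 and 80 peaks, or 45.4, 11.2 and 30.8 per Mb against 10.9, 6.79 and 13.6 per Mb over the genome. As a share of each library's list these were 0.396% (0.331 to 0.474), 0.157% (0.109 to 0.225) and 0.216% (0.174 to 0.269). The WT interval lay above both KO intervals, also with a stricter limit, with lists of equal length and with tags thinned to the lowest background. These settings reuse the same lists. The intervals cover counting error only, since neighbouring peaks of 1 library are not replicates, and they give no test between genotypes. With every deposited peak the intervals overlapped: the shares were then 0.184%, 0.170% and 0.173%. Within a single chromosome the intervals touched or overlapped, with 3.50% (2.79 to 4.37), 1.88% (1.19 to 2.95) and 2.34% (1.78 to 3.08) of the peaks of chromosome 11 and 3.31% (2.47 to 4.41), 1.47% (0.825 to 2.62) and 1.97% (1.38 to 2.80) of those of chromosome 15.

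**Figure D3:**
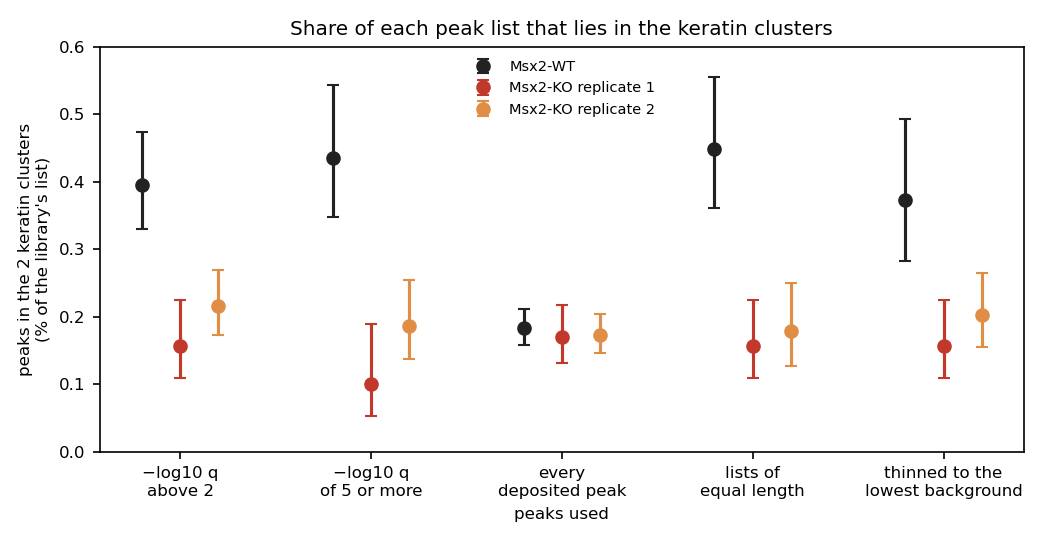
Peaks inside both keratin clusters as a percentage of each library's peak list (y axis) for 5 ways of choosing the peaks (x axis); points are the shares and bars Wilson 95% intervals. The WT interval lies above both KO intervals except where every deposited peak is used, at 0.184% against 0.170% and 0.173%.

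Peaks were spread unevenly along the clusters. In the 3 blocks that hold the keratin genes there were 49.9, 10.1 and 31.2 peaks per Mb, and in the rest of the intervals, which hold other genes, 41.0, 12.2 and 30.4. The stretch of 0.458 Mb between the keratin blocks of chromosome 11, which holds the genes for keratin-associated proteins, the matrix that embeds hair keratins, was the poorest, with 6.55, 2.18 and 4.37 peaks per Mb. Of these 23 genes, 1, 0 and 1 held a peak.

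Intergenic peaks, outside every annotated gene and outside the 5 kb before each keratin gene, numbered 61, 18 and 42, or 46.1, 13.6 and 31.7 per Mb of intergenic sequence, against 8.66, 5.31 and 10.3 over the genome. They merged into 68 regions, of which 15 (22.1%) were in all 3 libraries, 25 (36.8%) in WT alone, 20 (29.4%) in WT and KO2, and 2 (2.94%) in both KO libraries alone. Over all 47562 regions of the genome these shares were 27.6%, 18.7%, 14.4% and 7.66%. Of the 68 regions, 11 lay within 1500 bases of the start of another gene, among them the site with the most tags in WT, that of Jup, the gene for plakoglobin, which links keratin filaments to desmosomes, at 204 bases before its start (89, 29 and 49 tags), and that of Eif1, at 20 bases in WT (57, 13 and 33 tags). Within the keratin blocks there were 29, 7 and 16 intergenic peaks, none of them within 1500 bases of a start.

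The intergenic site with the most tags in the keratin blocks lay between Krt78 and Krt8, 20195 bases past the start of Krt8. It held 68 tags in WT and 19 in KO2, or 39.1 and 24.1 times background, and 4 tags below the limit in KO1. A neighbour 23468 bases past the Krt8 start held 44 tags in WT and 7, below the limit, in KO2. The opposite pattern was seen at 1 site of the keratin blocks, 6520 bases past the Krt5 start and beyond the gene's end, with 7 tags in KO1, 16 in KO2 and no listed peak in WT. Over background the KO values were 14.7 and 20.3, above 5.18, the lowest level of any WT peak past the limit. The windows shown are chr15:101984187-101984387 near Krt8, for its tags, and chr15:101706278-101706478 near Krt5, as passing in both KO libraries alone. Both are on the minus strand with the 11 summit bases in capitals.
Krt8 distal site: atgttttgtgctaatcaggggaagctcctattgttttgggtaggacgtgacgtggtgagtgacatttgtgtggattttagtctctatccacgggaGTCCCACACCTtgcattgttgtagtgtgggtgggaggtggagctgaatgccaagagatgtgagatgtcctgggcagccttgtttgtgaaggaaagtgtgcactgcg
Krt5 downstream site: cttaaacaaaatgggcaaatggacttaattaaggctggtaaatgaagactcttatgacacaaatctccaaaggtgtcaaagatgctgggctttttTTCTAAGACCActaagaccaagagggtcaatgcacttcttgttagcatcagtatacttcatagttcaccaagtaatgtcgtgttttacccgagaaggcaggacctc

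**Figure D4:**
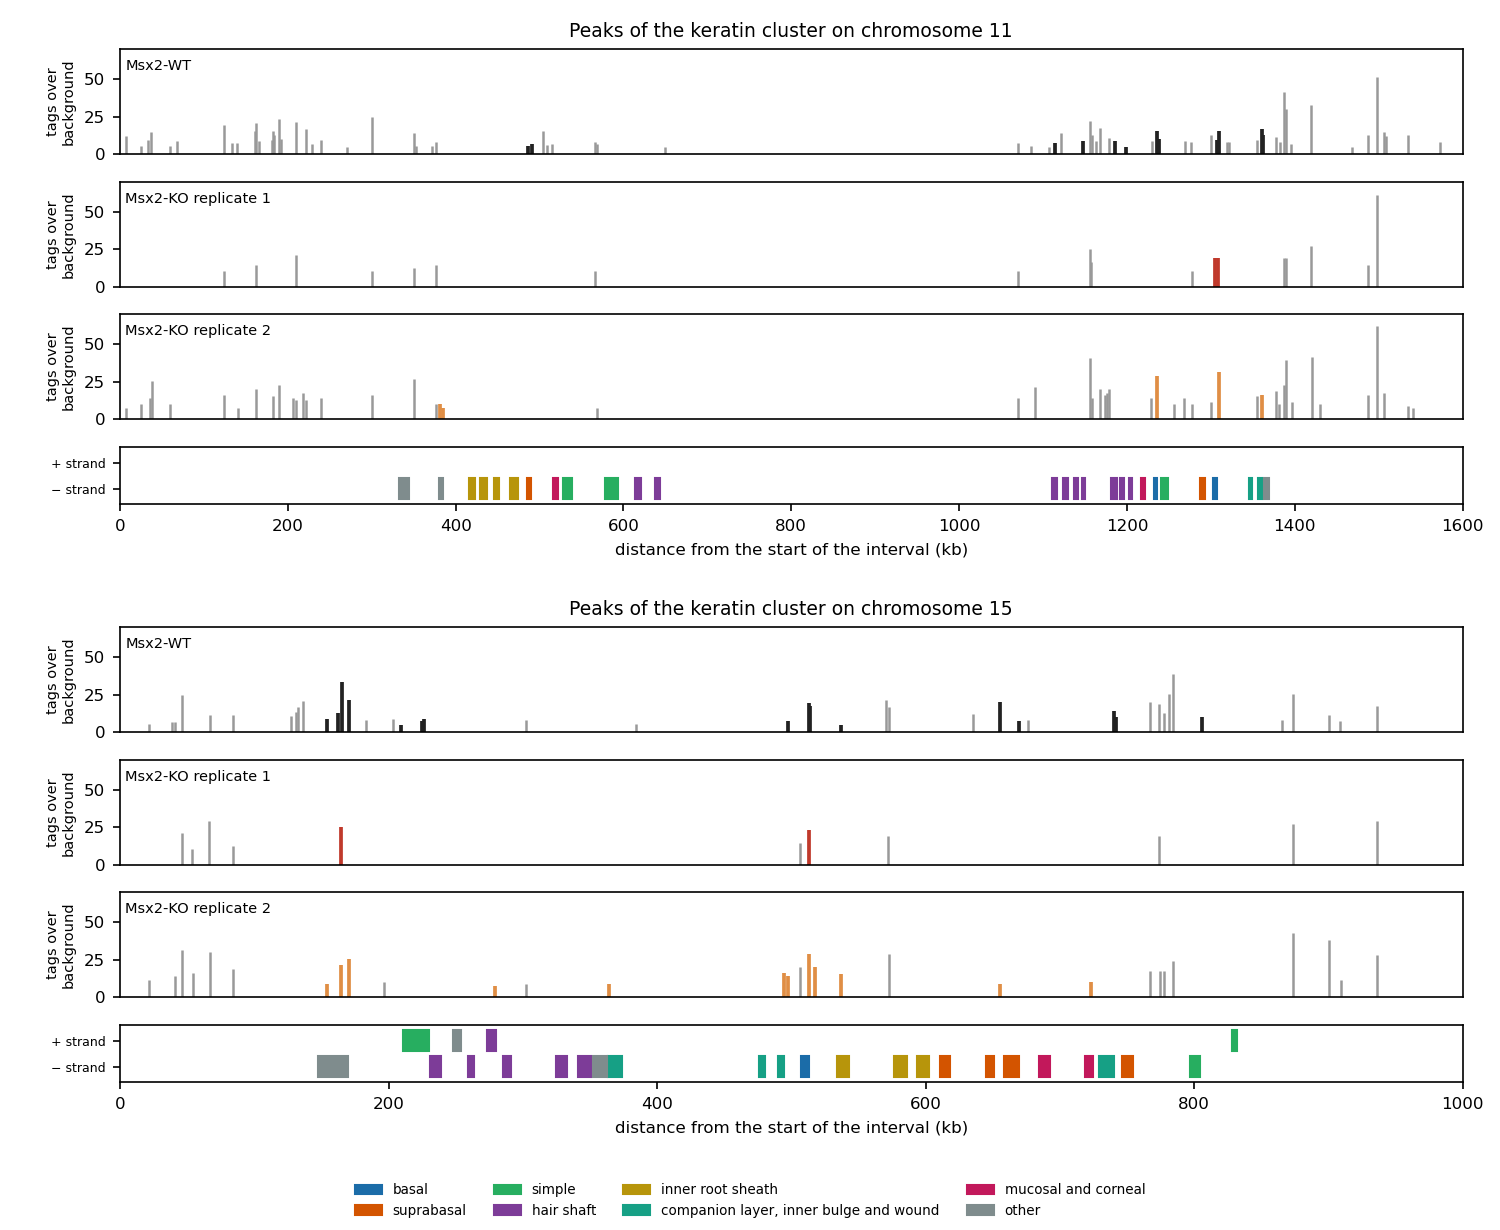
Peaks with a −log10 q above 2 along both keratin clusters (x axis, kb from the start of the interval; y axis, tags over the library's background at the summit) in the 3 libraries, with keratin genes below as boxes coloured by class on their strand. Coloured or black lines are peaks in keratin windows and grey lines all others; the middle of the chromosome 11 interval is nearly empty in all 3 libraries.

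Merging the 3 lists gave 133 regions in the intervals. Of these 51 (38.3%) passed in WT alone, 25 (18.8%) in all 3 libraries and 2 (1.50%) in both KO libraries alone, where over the genome the shares were 18.7%, 27.6% and 7.66% of 47562 regions. The 32 regions in keratin windows split likewise, with 14 (43.8%) in WT alone, 3 (9.38%) in all 3 and 0 in both KO libraries alone. A count of 0 among 32 allows a share of up to 10.7% (Wilson).

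At regions that passed in all 3 libraries, levels rather than calls were compared. At the 25 shared regions of the intervals the median level was 19.6 times background in WT, 18.9 in KO1 and 22.8 in KO2. At all 6206 shared regions over 1500 bases from a start it was 10.4, 21.0 and 25.3. At the 16 cluster regions that were likewise over 1500 bases from a start it was 17.8, 17.8 and 18.9. At like distance from starts, WT thus stood higher in the clusters than elsewhere, and KO1 and KO2 stood lower. Taken relative to the 6206 distal regions, 24 of the 25 cluster regions were higher in WT than in both KO libraries, against 38.3% of all distal shared regions, and 7 were so by over 2-fold (5.06% of distal shared regions). None was over 2-fold lower (5.33% of distal shared regions). The exception was the Nr4a1 start on chromosome 15, outside the keratin blocks.

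Within the keratin blocks, 10 of 10 shared regions were relatively higher in WT, by a median of 0.73 on the log2 scale. At the 3 in keratin windows the relative differences from KO1 and KO2 were 0.78 and 0.63 at Krt5, 0.74 and 0.18 at Krt14, and 1.43 and 1.84 at Krt80. Over the 25 cluster regions the median relative difference of WT from the KO libraries was 0.84, and that between the KO libraries was −0.24 (KO1 minus KO2). The direction was less general by the deposited fold, which divides by the local background of each site: 19 of 25 cluster regions and 6 of 10 in the keratin blocks were then higher in WT than in both KO libraries, against 37.0% of distal shared regions, and of the 3 in keratin windows 1 was. Regions of a cluster are neighbours and share their libraries, so they are not replicates. Distal shared regions on the rest of chromosome 11 were relatively higher in WT in 52.1% of cases and on the rest of chromosome 15 in 39.5%. With regions near starts included, as in the 25, these shares were 60.1% and 45.4%, and 11.3% and 5.79% were higher by over 2-fold.

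**Figure D5:**
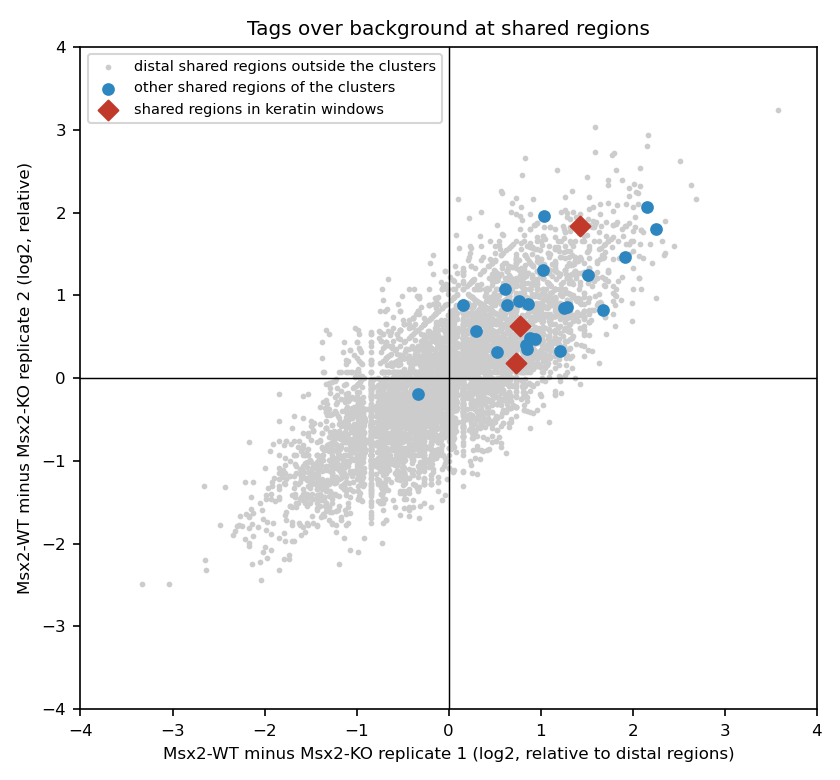
Difference in log2 tags over background between WT and KO1 (x axis) and KO2 (y axis) at regions shared by all 3 libraries, each relative to the median of distal shared regions; grey points are distal shared regions outside the clusters, blue points cluster regions and red diamonds those in keratin windows. Of the 25 cluster regions, 24 lie in the upper right, where WT is relatively higher than both.

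Keratin promoters were also described by their letters. RefSeq promoter sequences (GRCm38.p6, 250 bases before to 50 after the start) were matched by symbol for 36 of the 53 genes. The letters TATAAA, the core of the TATA box that positions transcription, stood on either strand in 19 of 36 (52.8%, 37.0 to 68.0), against 14.3% of 16522 protein-coding promoters. They were found in 5 of 13 matched genes with a peak in any library (38.5%, 17.7 to 64.5) and in 14 of 23 without (60.9%, 40.8 to 77.8), with overlapping intervals. The LEF/TCF letters CTTTGAA or CTTTGAT, read by factors of Wnt signalling, were found in 8 of 36 (22.2%, against 8.69%), of which 5 were among the 9 matched hair shaft genes. The AP-1 letters TGANTCA were found in 1 of 36 (2.78%, against 8.15%), the AP-2 letters GCCNNNGGC in 7 (19.4%, against 22.8%) and the homeobox core TAATTG in 7 (19.4%, against 7.88%). Median GC content was 48.5% in keratin promoters and 57.0% in all.

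In the 201 bases at the summits of the 32 regions in keratin windows, TATAAA was found in 6 (18.8%, 8.89 to 35.3, against 6.95% of all 47562 regions), TGANTCA in 3 (9.38%, against 12.0%), GCCNNNGGC in 4 (12.5%, against 10.7%), TAATTG in 3 (9.38%, against 7.29%) and the LEF/TCF letters in none (up to 10.7% by Wilson, against 6.26%). Of the 10 windows printed above, only that of Krt15 held any of these letters, TATAAA on the other strand from base 152 of the window. A match or its absence describes the letters of a window and not a bound factor.

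Of 14 genes for known regulators of keratins, promoters of 10, 7 and 12 held a peak, against the 47.0%, 37.8% and 53.5% of all genes given above. Those of Klf4 and the hair keratin regulator Hoxc13 did so in all 3 libraries, and that of Trp63 in WT and KO2. Only Cebpb, a factor of early epidermal differentiation, had a promoter peak in both KO libraries and not in WT (2.31% of all genes), and none had the reverse. Of 11 genes for partners of keratin filaments, 8, 6 and 7 promoters held a peak. Ppl, encoding periplakin, was the one open at its promoter in WT alone (2.11% of all genes), while both KO libraries held a peak elsewhere in its window.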

How the data were processed

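Omni-ATAC-seq libraries of sorted HFSCs were sequenced, 1 for Msx2-WT and 2 for Msx2-KO. The authors trimmed reads, aligned them to GRCm38/mm10 with BWA-MEM, dropped mitochondrial reads, retained duplicates and called peaks per library with MACS2, with no shifting model and fixed shift and extension. The fixed extension widens and can join nearby peaks, and retained duplicates can raise tag numbers. The deposited files give, per summit, a score, the fold over local background as a linear ratio, and −log10 p and −log10 q values. They hold peaks weaker than the stated q limit, so peaks with a −log10 q above 2 were used. Peak names of both Msx2-KO libraries carry cKO, and those of replicate 1 another library number than its label; the labels were followed.

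For each summit the whole tag number that gives both the deposited fold and its −log10 p was found (99.9% of summits in each library), and the commonest local background was taken as depth. The solution was tested on simulated data. Genes and starts came from GENCODE M21 (GRCm38). A peak belonged to a window that held its summit; regions were peaks of the 3 libraries merged on at least 1 shared base. Shares have Wilson 95% intervals and tags exact Poisson intervals. Genotypes were not tested against each other, as Msx2-WT had a lone library. Python 3.11.15, pandas 2.3.3 and scipy 1.17.1 were used.

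The keratin genes, their classes, the gene lists and the motifs were chosen with earlier results of these data known. Named with values were all basal, suprabasal and simple keratins, every keratin with a peak, the intergenic regions with the most tags, regulators and filament partners whose promoters separated the genotypes, and Lgr5 and further listed genes chosen after their values were seen. The keratin blocks, the distal regions as reference and the limits of detection were chosen after the data were seen, as was the set of printed sequences. Alternatives were the q limit, every deposited peak, lists of equal length, thinned tags, interval overlap, other window lengths, start sites only, reciprocal overlap, the deposited fold, and each KO library left out.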

Additional observations from a re-analysis of the deposited data

How the results depend on the processing

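No paired analysis was possible because the groups shared only 1 replicate number. Of 112 values under an alternative, 80 stayed within 1.5 times the main count, or for tags within the spread between the KO libraries, and 32 moved further. Some counts that stayed were 0 throughout, as for simple keratins open in all libraries. Only the tag difference could change sign, since the other values were counts, and it did not. Counts are of genes with a peak, or of intergenic peaks. Except at start sites, no share over all genes was computed for the counts of genes under an alternative.

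With a −log10 q of at least 5, keratin genes fell to 1 in KO1 and 5 in KO2, intergenic peaks to 5 and 25, and basal genes open in all 3 libraries to 0. With every deposited peak the genes were 26, 6 and 23, and intergenic peaks of KO1 were 30. With lists of equal length, KO2 had 4 genes and 21 intergenic peaks, and 1 basal gene was open in all. Thinned to the lowest background, WT had 5 genes and 24 intergenic peaks, the genes in both KO libraries alone rose from 0 to 2, and basal genes in all libraries fell to 0. With 10 kb before the start, the KO libraries had 5 and 20 genes and 1 hair shaft gene was open in all. At start sites alone, 4 genes were open in WT only, a pattern seen in 2.11% of all genes. Without KO1, 5 genes were in KO and not in WT and 1 suprabasal gene was in both remaining libraries; without KO2, 14 genes were in WT only. Leaving out either gave 9 to 14 WT-only genes and 0 to 5 of the reverse. In the keratin blocks alone, chosen after seeing the data, intergenic peaks were 29, 7 and 16.

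The relative tag difference at the 3 shared keratin regions, 0.67 on the log2 scale, came to 1.68 with the stricter q limit and 1.57 with 50% reciprocal overlap (1 region each), 0.82 with every peak (8 regions), 0.80 over all 25 cluster regions and 0.14 by the deposited fold. Against 9 genes, those open in WT alone numbered 8 with the stricter q limit and with lists of equal length, 6 with every peak and 3 with thinned tags; the cause was not tested. The lone WT library, the only one of its batch label, limits every contrast between genotypes.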
